A study of Caenorhabditis elegans with 6 samples.

Results

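The data described here come from the outermost 100 kb of chromosomes II, III, IV, V and X of Caenorhabditis elegans, the stretches that lie next to the telomeres. A window of the deposited ce10 tiling, about 1 kb wide, was a member when its midpoint lay within 100 kb of either end of its chromosome, the end being the highest coordinate that the table gives for that chromosome. This gave 1006 windows at 10 ends out of 100293 windows in all, and 971 of the 1006 held a read in at least 1 library. The ends are called left and right by their ce10 coordinates. The rule used position alone and no measured value.

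ChIC-seq, a relative of CUT&RUN, brings micrococcal nuclease (MNase) fused to protein A to an antibody on a histone mark and sequences the DNA that the nuclease frees. All 6 libraries came from body wall muscle of L3 larvae grown from synchronized L1 animals. In met-2(n4256) III muscle, here called met-2, H3K27ac and an MNase control without antibody were sequenced, and in N2 (Bristol) muscle, here called WT, H3K9me2, H3K9me3, H3K27ac and the same kind of control. According to the paper, muscle cells for ChIC-seq were isolated by sorting on red fluorescence from a myo-3 promoter. Its ChIC-seq methods describe cells fixed in ethanol before they were sorted, with the DNA stain Hoechst to gate fixed cells. By the paper's account the values thus describe sorted cells that carried a marker transgene which the labels do not list. Each group was 1 library, and the H3K9 marks were sequenced in WT only. No difference between groups could therefore be set against a spread between replicates, no test is given, and the intervals below cover counting error only.

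A telomere is a block of short repeats that protects the chromosome tip from loss and fusion. The worm has holocentric chromosomes whose arms are rich in repeats and carry much of the histone H3 lysine 9 methylation (H3K9me), while the centres hold more broadly expressed genes. MET-2, a relative of mammalian SETDB1, places H3K9me1 and H3K9me2, and SET-25 places H3K9me3, marks associated with silent chromatin and with the nuclear periphery. H3K27ac is found at active promoters and enhancers.

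The libraries held between 2475550 reads (met-2 control) and 28519008 reads (WT H3K9me3), an 11.5-fold range. Reads were scaled to the mean library total of 16977530 and are called scaled reads. Enrichment is log2(scaled reads + 8) of a mark minus the same quantity in the MNase control of its genotype, and medians were taken over the windows with a read. The median end window held 211 reads for met-2 H3K27ac, 116 for WT H3K27ac, 183 for H3K9me2 and 249 for H3K9me3, against 18 in the met-2 control and 62 in the WT control. A value that rests on the met-2 control is therefore the least precise.

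The ends were slightly poor in reads in all 6 libraries. They made up 1.00% of windows and held 0.913% of H3K9me2 reads, 0.893% of H3K9me3 reads, 0.904% of met-2 H3K27ac reads, 0.875% of WT H3K27ac reads, 0.819% of met-2 control reads and 0.810% of WT control reads. The 95% Wilson interval was widest for the met-2 control, 0.808% to 0.830%, and narrowest for H3K9me3, 0.889% to 0.896%, so every library lay below the share of windows by more than its counting error. The controls showed the deficit as well as the marks.

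The largest deficits in the median window were at 2 of the 10 ends. At X left the median scaled reads per window were 0.693 of the rest of X for H3K9me2, 0.593 for H3K9me3, 0.328 for met-2 H3K27ac, 0.262 for WT H3K27ac, 0.435 for the met-2 control and 0.472 for the WT control. At IV left the ratios to the rest of IV were 0.529 for H3K9me2, 0.654 for H3K9me3, 0.737 for met-2 H3K27ac, 0.725 for WT H3K27ac, 0.524 for the met-2 control and 0.614 for the WT control. The other 8 ends kept within 0.727 (met-2 control, II right) and 1.21 (H3K9me2, III right) of the rest of their chromosome in all 6 libraries. Across the 10 ends the median ratio was 0.921 for H3K9me2, 0.967 for H3K9me3, 0.991 for met-2 H3K27ac, 0.942 for WT H3K27ac, 0.773 for the met-2 control and 0.917 for the WT control.

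**Figure D1:**
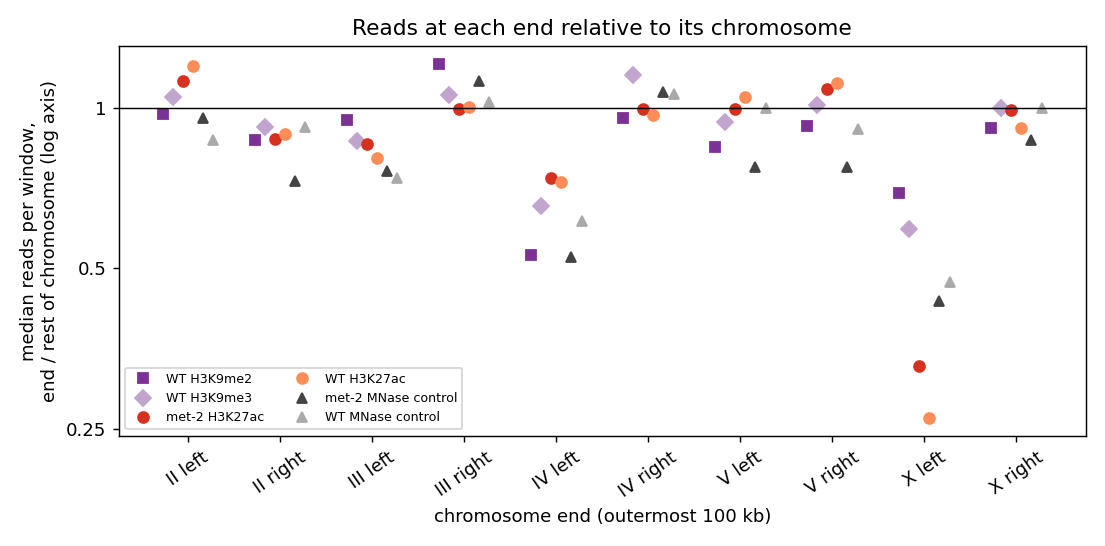
Median reads per window at each of the 10 chromosome ends divided by the median over the rest of the same chromosome, on a log axis, with 1 point per library (1 library per group, no error bars). X left and IV left lie below 1 in all 6 libraries, and X left reaches 0.328 for met-2 H3K27ac and 0.262 for WT H3K27ac.

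Over their controls, the ends taken as a group differed little from the rest of their chromosomes. The median over the 10 ends of end minus rest was 0.07 on the log2 scale for H3K9me2, with the second lowest end at -0.09, the second highest at 0.29 and 7 of 10 ends above 0. For H3K9me3 it was 0.09, with the second lowest end at -0.09, the second highest at 0.18 and 8 ends above 0. For met-2 H3K27ac it was 0.08 (7 ends above 0), and for WT H3K27ac it was 0.02 (6 ends above 0). In each of the 4 cases the second lowest end lay below 0 and the second highest above it, so no mark set the 10 ends apart from the rest of their chromosomes as a class. Against the rest of the same chromosome arm, which can be drawn for the 8 autosomal ends, H3K9me3 was as often lower as higher, with a median difference of -0.00 and 4 of 8 ends above 0, and H3K9me2 had 0.06 and 5 of 8. H3K27ac was more often higher in that comparison, by 0.18 in met-2 (6 of 8 ends above 0) and by 0.15 in WT (7 of 8).

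The counts of enriched windows gave the same picture. A window was called enriched when its enrichment exceeded 0.5. For H3K9me3, 435 of the 971 end windows were enriched (44.8%), against 42.7% of all windows of the series. For H3K9me2, 401 were enriched (41.3%), against 36.1% of all windows. For met-2 H3K27ac there were 352 (36.3%), against 31.0%, and for WT H3K27ac 415 (42.7%), against 41.8%. The shares at the ends thus stood 0.94 to 5.29 percentage points above the background. H3K9me2, H3K9me3 and WT H3K27ac share the WT control, so their counts are given side by side and not as overlaps. Of the end windows enriched for H3K9me3, 43.0% were also above 0.5 when the met-2 control took the place of the WT control, and of those enriched for H3K9me2, 44.9%. Over all windows of the series these shares were 38.0% for H3K9me3 and 40.0% for H3K9me2.

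**Figure D2:**
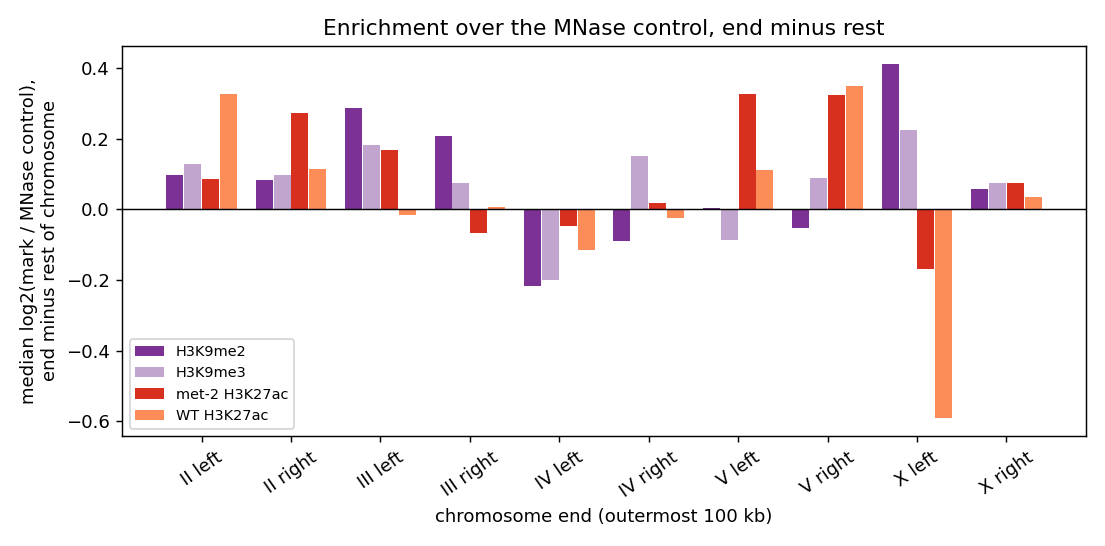
Median log2 enrichment over the MNase control at each end minus that of the rest of the same chromosome, for H3K9me2, H3K9me3, met-2 H3K27ac and WT H3K27ac (bars from 0, 1 library each). X left has the highest H3K9me2 bar, 0.41, and the lowest WT H3K27ac bar, -0.59, while signs are mixed at the other ends.

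The left end of X stood furthest from its chromosome. Its 100 windows, 93 of them with a read, had median scaled reads of 101 for H3K9me2, 96.4 for H3K9me3, 60.0 for met-2 H3K27ac, 47.2 for WT H3K27ac, 68.6 for the met-2 control and 58.4 for the WT control. In the rest of X the medians were 146, 163, 183, 180, 158 and 124 in the same libraries. When X was divided into 178 stretches of 100 kb counted from its ends, the left end was the lowest of all in H3K27ac reads in both genotypes. It was the 3rd lowest in both controls, the 3rd lowest in H3K9me2 reads and the 2nd lowest in H3K9me3 reads. All 6 libraries were thus low there, and H3K27ac lay further below its level in the rest of X than the controls did.

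Relative to the WT control, H3K9me2 was high and H3K27ac low at X left. The median H3K9me2 enrichment was 0.62 at X left, against 0.21 in the rest of X, the 2nd highest of the 178 stretches. The median WT H3K27ac enrichment was -0.14 at X left, against 0.45 in the rest of X, the lowest of the 178. H3K9me3 had a median of 0.59 at X left, against 0.36 in the rest, and ranked 17th from the highest, but it lay below the rest with no control (-0.71) and with an end of 50 kb (-0.07). Of the 93 windows, 53 were enriched for H3K9me2 (57.0%, against 36.7% of the rest of X) and 22 for WT H3K27ac (23.7%, against 48.1%). The H3K9me2 gain depended on dividing by the control, which was itself low: scaled H3K9me2 reads alone gave an end minus rest of -0.50, while the met-2 control in place of the WT control gave 0.67. The WT H3K27ac difference kept its sign under all 12 settings tried, between -1.77 and -0.33.

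X left held the longest run of adjacent windows enriched for H3K9me3 at any of the ends, 11 windows from 48825 to 59824, where the runs at the other ends spanned 4 to 7 windows. Of these 11 windows, 9 were also above 0.5 over the met-2 control, as were 54.2% of all X left windows enriched for H3K9me3. In the runs at the other ends this went from 0 of 6 windows at III right to 4 of 4 at II right. The X left run held 2585 H3K9me3 reads against 343 reads in the shallower WT control, and its median H3K9me3 enrichment was 1.47. Its windows were chosen by H3K9me3 over this same control, so these values follow in part from the choice. Over the same WT control the other marks were high in the run too, with medians of 0.60 for H3K9me2 and 0.89 for WT H3K27ac.

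H3K27ac was higher in met-2 muscle than in WT muscle at X left. The end held 10227 met-2 H3K27ac reads and 4408 WT H3K27ac reads, which after scaling is a ratio of 1.35, or 0.43 on the log2 scale with a 95% counting interval of 0.38 to 0.48. The rest of X gave -0.00. At the other 9 ends the same quantity lay between -0.04 at II left and 0.12 at IV right, so no interval of theirs reached that of X left. The controls held 1170 met-2 reads and 4546 WT reads at X left, 0.04 on the log2 scale after scaling. Window by window, the control difference, met-2 minus WT, had a median of 0.00 at X left, against 0.27 in the rest of X. The part of the controls in the H3K27ac difference was not tested. The H3K27ac level in met-2 muscle was still far below the rest of X, at 0.328 of its median.

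**Figure D3:**
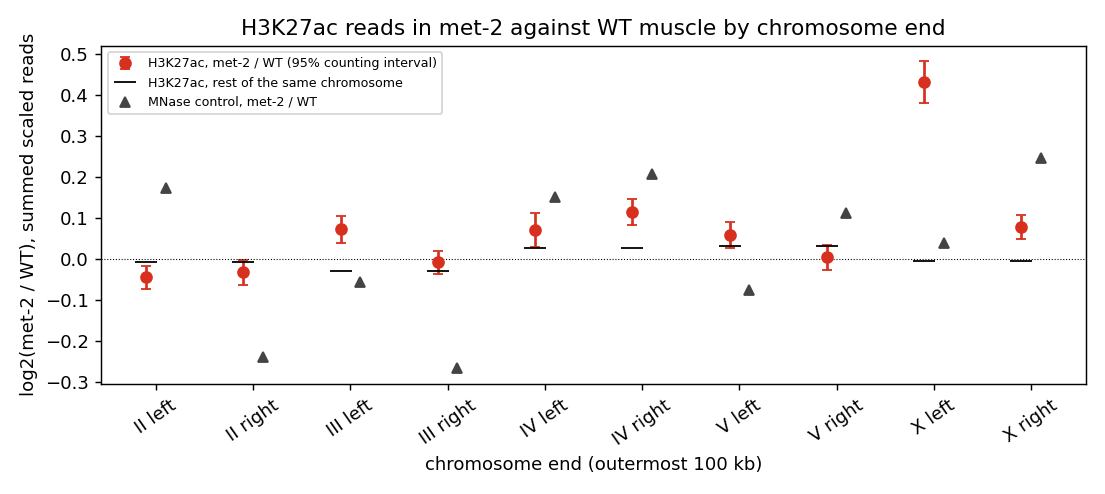
Log2 ratio of summed scaled reads, met-2 over WT, at each end for H3K27ac (circles with 95% counting intervals, which leave out variation between animals) and for the MNase controls (triangles), with short lines for H3K27ac over the rest of the same chromosome. X left lies at 0.43, and the other 9 ends lie between -0.04 and 0.12.

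Window by window, the H3K27ac change in scaled reads, met-2 minus WT of log2(scaled reads + 8), had a median of 0.36 at X left, against 0.01 in the rest of X, the highest of the 178 stretches. It was above 0 in 72 of 93 windows (77.4%), against 51.2% of windows in the rest of X. Over the 10 ends, 100 of 971 windows were higher in met-2 by more than 0.5 (10.3%, against a background of 7.16%) and 25 were lower by more than 0.5 (2.57%, against 3.07%). Of the 100 higher windows, 37 lay at X left, and without that end the share was 63 of 878 (7.18%), next to the background. Taken over the controls instead, 276 end windows were higher in met-2 (28.4%, against a background of 28.2%) and 319 were lower (32.9%, against 36.7%). This majority turned with TMM scaling, which gave 332 higher and 265 lower. At X left the change over the controls had a median of 0.00, against -0.25 in the rest of X, and its end minus rest ran from -0.30 to 0.50 over the settings tried.

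The X left windows held few WT H3K27ac reads, with a median of 38, so windows in the same band of WT H3K27ac count were set side by side. Among windows with 10 to 20 WT H3K27ac reads the median change was 0.86 at X left (8 windows), against 0.07 in the rest of X (95 windows). Among those with 20 to 40 WT H3K27ac reads it was 0.44 at X left (30 windows), against 0.16 in the rest of X (204 windows). Among those with 40 to 80 reads it was 0.48 (27 windows), against 0.26 (1113 windows). Windows of 80 reads or more were not compared, since that band has no upper limit. With under 10 reads it was 0.00 (12 windows), against 0.06 (186 windows). The change was thus higher at X left in each of the 3 bands between 10 and 80 reads and not in the lowest, and windows poor in WT H3K27ac had median changes above 0 in the rest of X too. The bands were set on the WT H3K27ac count, which the change itself subtracts. The rest of X also includes the stretches from 100 to 300 kb inwards of X left, which are described next. How far low coverage takes part in the change was not tested.

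The low-read stretch did not stop at 100 kb. From 100 to 200 kb and from 200 to 300 kb inwards of X left, median scaled H3K27ac reads were 81.7 and 68.3 in met-2, against 58.4 and 52.8 in WT. The H3K27ac change was 0.26 and 0.29 there, so the 3 outermost stretches held the 3 highest values of the 178. Between 200 and 300 kb 20 windows held no read in any library, and the medians there rest on the other 80. From 300 to 400 kb the met-2 median was 160 and the WT median 150, the change was 0.08, and this stretch ranked 19th. Relative to the adjacent 100 kb the change in scaled reads at X left was 0.10 higher and the change over the controls 0.30 lower. H3K9me2 enrichment was 0.07 lower and H3K9me3 enrichment 0.38 lower, and both WT and met-2 H3K27ac enrichment were 0.33 lower. The extent of the stretch was looked at after the values of the end were known.

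**Figure D4:**
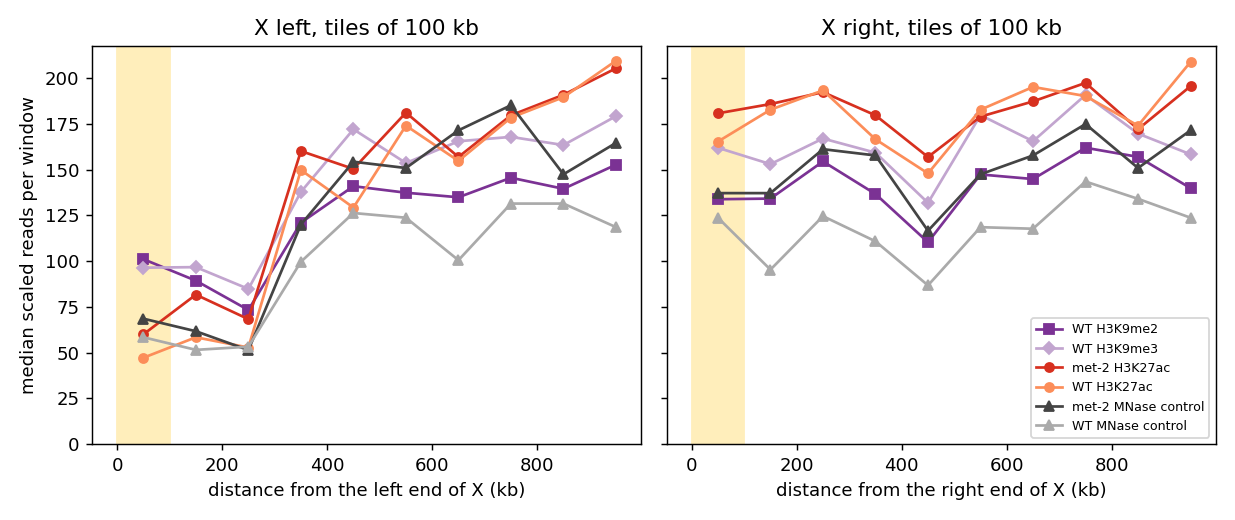
Median scaled reads per window in stretches of 100 kb over the outermost 1000 kb of the left and right sides of X, for the 6 libraries, with the end itself shaded. On the left side all 6 libraries are low over the first 300 kb, with met-2 H3K27ac above WT H3K27ac, and on the right side they show no such fall.

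Single windows at X left show the range of these values. The window at X:94825-95824 held 383 H3K9me2 reads, against 10 WT control reads, an enrichment of 3.48 (95% counting interval 2.57 to 4.38), the 2nd highest for H3K9me2 among end windows. The same window held 186 met-2 H3K27ac reads, against 38 WT H3K27ac reads, a change of 1.37 (0.86 to 1.87). Its controls also differed, with 16 met-2 reads against 10 WT reads, and over the controls the change was -0.86. Among end windows that averaged at least 20 scaled reads, the highest change lay at X:22826-23825, with 49 met-2 H3K27ac reads, against 5 WT H3K27ac reads, 1.61 (0.28 to 2.94). The lowest also lay at X left, at X:81825-82824, with 20 met-2 reads, against 31 WT reads, -1.05 (-1.86 to -0.24). At X:91825-92824, 23 WT H3K27ac reads stood against 114 WT control reads, an enrichment of -2.48 (-3.12 to -1.83).

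X right was unlike X left. Its 101 windows all held reads, and the ratios to the rest of X were 0.917 for H3K9me2, 0.996 for H3K9me3, 0.988 for met-2 H3K27ac, 0.917 for WT H3K27ac, 0.870 for the met-2 control and 1.00 for the WT control. End minus rest in enrichment was 0.06 for H3K9me2, 0.07 for H3K9me3, 0.07 for met-2 H3K27ac and 0.03 for WT H3K27ac. Summed H3K27ac was slightly higher in met-2, with 25271 reads, against 13925 in WT, 0.08 after scaling (0.05 to 0.11). The controls moved further in the same direction at this end, by 0.25.

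The left end of IV was nearly empty of reads over much of its length. Of its 101 windows 27 held no read in any library and 35 held at most 3 reads in each. Over the outermost 45 kb, 46 windows of which 19 held a read, the sums were 140 reads for H3K9me2, 222 for H3K9me3, 240 for met-2 H3K27ac, 148 for WT H3K27ac, 24 for the met-2 control and 104 for the WT control. The remaining 55 windows all held reads. Their median scaled reads were 119 for H3K9me2, 117 for H3K9me3, 168 for met-2 H3K27ac, 152 for WT H3K27ac, 137 for the met-2 control and 87.6 for the WT control, against 134, 155, 157, 149, 144 and 113 in the rest of IV. The outer part was thus nearly empty in every library, while in the inner part H3K27ac was at or slightly above the rest of IV and H3K9me2, H3K9me3 and both controls were below it. The border at 45 kb was chosen after the values were seen, and whether reads can be placed uniquely in the empty windows was not tested.

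In median enrichment, IV left lay lowest of the 10 ends in H3K9 methylation relative to its chromosome. End minus rest was -0.22 for H3K9me2, -0.20 for H3K9me3, -0.05 for met-2 H3K27ac and -0.12 for WT H3K27ac. These signs depended on the setting: H3K9me3 was 0.12 with windows summed to 10 kb, 0.04 with summed reads and 0.06 against the next 100 kb, H3K9me2 was 0.05 over the met-2 control, and with summed reads met-2 H3K27ac was 0.24 and WT H3K27ac 0.30. Over windows averaging at least 20 scaled reads met-2 H3K27ac was 0.27 and WT H3K27ac 0.28, and WT H3K27ac was also above the rest over the met-2 control (0.09) and with 10 kb windows (0.08). Windows with few reads are drawn towards 0 by the added 8, and in the 55 inner windows H3K9me3 enrichment had a median of 0.37, against 0.41 in the rest of IV. H3K9me2 was low in the inner part too, at 0.02, against 0.22 in the rest of IV. One window, IV:50124-51123, was among the 3 with the highest H3K27ac change, with 164 met-2 reads, against 35 WT reads, 1.30 (0.77 to 1.82). The met-2 control was higher there as well, with 21 reads in the shallower met-2 control, against 11 in WT, and over the controls the change was -1.20.

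IV right was close to its chromosome in most libraries and had the highest median H3K9me3 reads of the 10 ends relative to the rest. By the mean, III right was higher, 1.17 against 1.11. The ratios to the rest of IV were 0.955 for H3K9me2, 1.15 for H3K9me3, 0.993 for met-2 H3K27ac, 0.967 for WT H3K27ac, 1.07 for the met-2 control and 1.06 for the WT control. H3K9me3 enrichment had a median of 0.56 at IV right, against 0.41 in the rest of IV, and 52.0% of its windows were enriched, against 46.5% in the rest of IV. H3K9me2 enrichment went the other way, 0.13 at IV right, against 0.22 in the rest. The rest of the same arm had medians of 0.61 for H3K9me3 and 0.20 for H3K9me2, so the end lay below its arm in both. The strongest H3K9me3 window of all ends lay here, at IV:17485962-17486961, 7.3 kb from the end, with 354 H3K9me3 reads, against 11 WT control reads, 3.02 (2.16 to 3.89), and 2.15 over the met-2 control. That window also held 104 H3K9me2 and 129 WT H3K27ac reads against the same 11 WT control reads. It held 277 met-2 H3K27ac reads against 6 met-2 control reads, so it was not high in H3K9me3 alone.

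At III right, reads were concentrated in a few windows close to the tip. The 4 adjacent windows at III:13777824-13781823 held between 1.96 and 11.1 times the median of the rest of III in the 6 libraries. They took 13.1% of the end's H3K9me2 reads, 17.4% of H3K9me3, 15.2% of met-2 H3K27ac, 14.2% of WT H3K27ac, 12.9% of met-2 control and 11.4% of WT control reads. All libraries were high in them, controls included, so the enrichment over the control in the 4 windows was mixed, from -0.17 to 1.69 for H3K9me3. Outside them lay 2 windows with few reads, the outermost with 43 H3K9me2, 124 H3K9me3, 149 met-2 H3K27ac, 82 WT H3K27ac, 8 met-2 control and 14 WT control reads. These windows were picked out after their values were seen. Over the whole end, H3K9me2 was 0.21 above the rest of III in enrichment, H3K9me3 0.07 above, met-2 H3K27ac 0.07 below and WT H3K27ac 0.01 above.

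III left had the highest H3K9me2 of the autosomal ends relative to its chromosome. The median H3K9me2 enrichment was 0.43 at III left, against 0.14 in the rest of III, and 48 of 99 windows were enriched (48.5%, against 34.3%). H3K9me3 was 0.40 at III left, against 0.22 in the rest. The rest of the same arm had medians of 0.27 for H3K9me2 and 0.41 for H3K9me3. In the next 100 kb inwards they were 0.17 and 0.43, so only H3K9me2 was above the arm and the neighbouring stretch. In reads the end lay below the rest of III in all 6 libraries, with ratios of 0.946 for H3K9me2, 0.865 for H3K9me3, 0.853 for met-2 H3K27ac, 0.806 for WT H3K27ac, 0.762 for the met-2 control and 0.737 for the WT control. The controls were thus the lowest, and the mark with the highest enrichment was the one whose reads fell least. The window at III:91951-92950 ranked 2nd for both H3K9me3 and WT H3K27ac, with 204 H3K9me3 reads and 107 WT H3K27ac reads, against 6 WT control reads.

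All 4 ends of II and V lay above the rest of their chromosomes in H3K27ac over the control, by 0.09 to 0.33 in met-2 and by 0.11 to 0.35 in WT. At II left, WT H3K27ac enrichment was 0.33 above the rest of II and met-2 H3K27ac 0.09 above, with H3K27ac reads at 1.12 times the rest in met-2 and 1.20 times in WT. At II right, met-2 H3K27ac was 0.27 above the rest and WT H3K27ac 0.12 above, yet reads were lower in every library, 0.873 of the rest for met-2 H3K27ac and 0.893 for WT H3K27ac, with the met-2 control at 0.727. At V right, met-2 H3K27ac was 0.32 and WT H3K27ac 0.35 above the rest of V. V left was 0.33 above the rest of V in met-2 and 0.11 in WT. The met-2 control stood at 0.773 of the rest at both V ends, while met-2 H3K27ac reads were 0.995 of the rest at V left and 1.09 at V right. The part of the low control in the met-2 difference was not tested.

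H3K9 methylation at these 4 ends differed from the rest of the chromosome by at most 0.13. H3K9me2 was 0.10 above the rest at II left, 0.08 above at II right, 0.00 at V left and 0.05 below at V right. H3K9me3 was 0.13 above at II left, 0.10 above at II right, 0.09 below at V left and 0.09 above at V right. Single windows ranged far more widely. The highest H3K9me2 window of all ends, II:15240297-15241296, held 578 H3K9me2 reads, against 17 WT control reads, 3.49 (2.80 to 4.19), and only 117 H3K9me3 reads. At V:20920975-20921974, 2.7 kb from the tip, 98 WT H3K27ac reads and 77 H3K9me3 reads stood against 0 WT control reads. Set against a floor of 3 control reads in that window, this is 23.6-fold higher for WT H3K27ac and 8.89-fold higher for H3K9me3. The counting intervals were wide. Enrichment was 4.02 (1.18 to 6.86) for WT H3K27ac and 2.75 (-0.10 to 5.60) for H3K9me3, whose interval includes 0. Over the met-2 control, with 2 reads, the values were 2.58 and 1.31.

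Windows close to the tips held fewer reads at most ends. Over the 10 ends the median scaled reads of windows within 10 kb of the end were 83.3 for H3K9me2, 90.5 for H3K9me3, 143 for met-2 H3K27ac, 131 for WT H3K27ac, 54.9 for the met-2 control and 75.6 for the WT control (95 windows). From 30 to 40 kb inwards they were 137, 166, 151, 154, 137 and 117 in the same libraries (92 windows). H3K27ac thus differed least between tip and interior and the met-2 control most. Setting the outermost 10 kb of each end against its own inner 90 kb, the median ratio was 0.595 for H3K9me2, 0.500 for H3K9me3, 0.792 for met-2 H3K27ac, 0.736 for WT H3K27ac, 0.406 for the met-2 control and 0.624 for the WT control. The fall was seen at 9 of 10 ends for H3K9me2, H3K9me3 and the met-2 control, at 8 for the WT control and at 7 for H3K27ac in each genotype.

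Over its control, met-2 H3K27ac was highest in the outermost 10 kb. It was above the inner 90 kb at 9 of 10 ends, with a median difference of 0.71 and X left, at -0.20, as the exception. IV left entered this count and those below with only 4 outer windows, which were nearly empty. Their median scaled reads were 1.4 for met-2 H3K27ac and 0 for the met-2 control. WT H3K27ac was above at 6 ends, with a median difference of 0.21. The control difference, met-2 minus WT, was lower in the outermost 10 kb than in the inner 90 kb at 9 of 10 ends. The median of outer minus inner was -0.34, so the met-2 control was low where the met-2 H3K27ac enrichment was high. Its part in that enrichment was not tested. In scaled reads, without the controls, the H3K27ac change within 10 kb of the end was 0.06, and it was between 0.00 and 0.13 in the other 9 bins of 10 kb. H3K9me2 and H3K9me3 were each higher in the outermost 10 kb at 3 ends, with median differences of -0.28 and -0.18. Within 10 kb of the end the median H3K9me2 enrichment was 0.01, the lowest of the 10 bins, and H3K9me3 showed no steady course with distance, between 0.18 and 0.66.

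**Figure D5:**
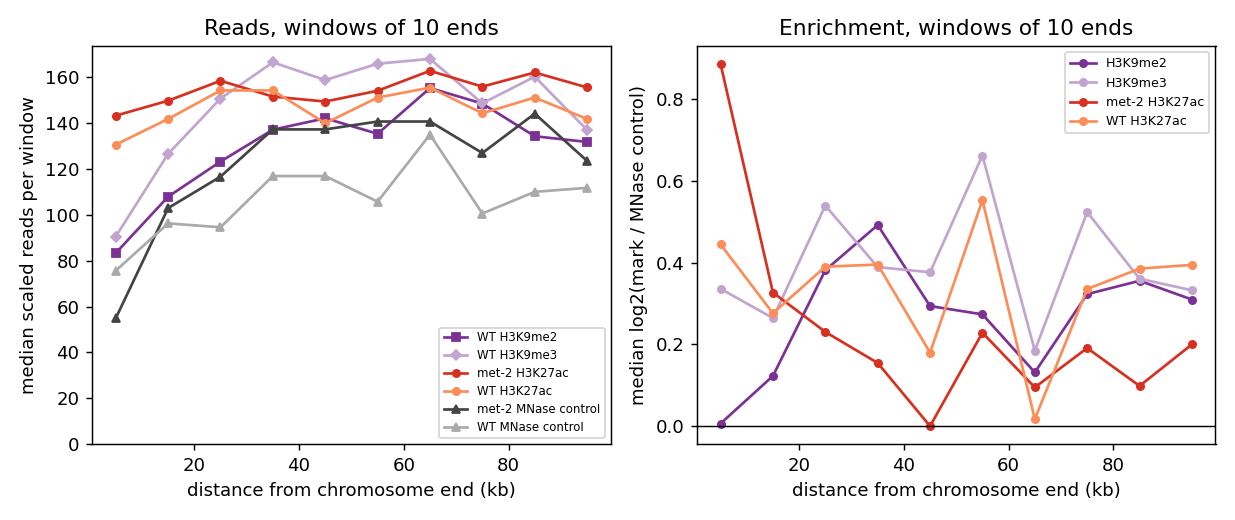
Median scaled reads per window (left) and median log2 enrichment over the MNase control (right) by distance from the chromosome end in bins of 10 kb, over the windows with a read at 10 ends (92 to 100 windows per bin). Reads of the met-2 control fall to 54.9 within 10 kb of the end, where met-2 H3K27ac enrichment is 0.89.

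At the very tip, the outermost window with a read was a partial window at most ends and held few reads. At III left it was 951 bp wide and held 111 H3K9me2, 84 H3K9me3, 50 met-2 H3K27ac, 49 WT H3K27ac, 5 met-2 control and 31 WT control reads. At II left it was 438 bp wide and held 23 H3K9me2, 41 H3K9me3, 16 met-2 H3K27ac, 3 WT H3K27ac, 2 met-2 control and 8 WT control reads. At IV right it was 832 bp wide and held 18 H3K9me2, 14 H3K9me3, 11 met-2 H3K27ac, 0 WT H3K27ac, 0 met-2 control and 18 WT control reads. At X right it was 205 bp wide and held 39 H3K9me2, 17 H3K9me3, 25 met-2 H3K27ac, 13 WT H3K27ac, 1 met-2 control and 6 WT control reads. The tips of II right, IV left, V left, V right and X left held at most 6 reads in any library. No mark was therefore measurable at this depth in the last window of these 5 ends.

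Windows of the ends kept their order between the 2 genotypes for H3K27ac more closely than for the controls. Spearman's rho of scaled reads over the 971 windows was 0.91 between met-2 and WT H3K27ac and 0.49 between the met-2 and WT controls, where all windows of the series gave 0.89 and 0.39. By end, rho for H3K27ac ran between 0.85 and 0.95, while for the controls it ran between 0.08 at IV right and 0.79 at IV left, where empty windows are shared. These are descriptions over windows of the same libraries, which differ in depth.

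Left and right ends were set side by side. The 5 left ends had a median H3K9me2 end minus rest of 0.10 and the 5 right ends 0.06. For H3K9me3 the left ends had 0.13, between -0.20 and 0.23, and the right ends 0.09, between 0.07 and 0.15, so the left ends varied more. End minus rest in the H3K27ac change over the controls was above 0 at 4 of the 5 left ends (median 0.17) and at 1 of the 5 right ends (-0.02). The control difference, met-2 minus WT, lay below that of the rest of the chromosome at all 5 left ends (median end minus rest -0.23). Over the right ends the median end minus rest of the control difference was 0.00. In scaled reads without the controls, the H3K27ac change was above that of the rest of the chromosome at 3 ends on each side. With 5 ends a side and 1 library a group these counts are a description.

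Genes can be named for the ends by their order only, from the RefSeq annotation of WBcel235, a later build than that of the windows. The outermost protein-coding gene was pot-3, a relative of the telomere-binding protein POT1, at III right, pbo-5, a subunit of a proton-gated channel, at V right, and nas-6, an astacin-type protease, at IV right. Further in lay egl-8, a phospholipase C, and ife-3, an eIF4E translation factor, at V left, nhr-80, a nuclear hormone receptor, at III left, and unc-80, a component of a sodium leak channel, at V right. At X left the first 5 were Y73B3A.1, Y73B3A.20, Y73B3A.4, elk-2 and fbxa-221. No window value was assigned to a gene.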

How the data were processed

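ChIC-seq reads of 6 libraries were analysed as read counts per window of about 1 kb, as deposited by the authors. Per the methods, reads were trimmed with Trimmomatic 0.39, aligned to ce10 with bowtie2, deduplicated with Bismark and counted in either orientation with QuasR. The methods name narrower windows than the file holds, and the treatment of multiply mapping reads is not given in the sources used here, which affects repeats at chromosome ends.

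Counts were scaled to the mean library total, 8 was added and log2 taken, as in the study, and marks were set against the MNase control of the same genotype (Python 3.11.15, pandas 2.3.3). TMM factors came from edgeR 4.0.16. Each group had 1 library, so no test was made. Intervals (95%) cover counting error only. They treat reads as independent molecules, which reads are not, so they can be too narrow. The script was checked on simulated data. Arm borders follow the study.

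Named windows are the 10 ends, the outermost window with a read at each, the 3 highest and 3 lowest windows per measure averaging at least 20 scaled reads, and the longest H3K9me3 run at each end. The members, though defined by position, and the lists were chosen with earlier results of these data known. Windows of chromosome I and of the mitochondrial genome entered only the totals and the share over all windows. No sequence of the ends is given, since no genome of the ce10 build was used here.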

Additional observations from a re-analysis of the deposited data

How the results depend on the processing

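Over the 6 differences between end and rest and the 4 shares of enriched windows, 100 alternative values were computed, of which 5 moved. Of the 68 differences 67 stayed between the second lowest and second highest end, and of the 32 shares 28 stayed within 1.5 times the main share, though with TMM scaling H3K9me3 came to 33.5% and over the other control to 35.3%, against 44.8%, and met-2 H3K27ac over the other control to 46.7%, against 36.3%. Each range from the second lowest to the second highest end spanned 0, so a difference could stay within it and still turn sign. H3K9me2 end minus rest, 0.07 in the main setting, was -0.11 with no control, with 1 of 10 ends above 0. With no control H3K9me3 was -0.05, met-2 H3K27ac -0.01 and WT H3K27ac -0.08, and WT H3K27ac was -0.05 with ends of 200 kb. The cause was not tested beyond the low control reads at the ends. A threshold of 1 lowered the share of enriched end windows to 26.3% for H3K9me3, 22.1% for H3K9me2, 17.2% for met-2 H3K27ac and 23.1% for WT H3K27ac, by construction. TMM scaling moved the median of all windows for H3K9me3 to 0.05, against 0.32 with library totals, for H3K9me2 to 0.03, against 0.19, for WT H3K27ac to 0.02, against 0.30, and for the change over the controls to 0.04, against -0.14. It changed the split of calls at the ends for H3K9me3 to 325 higher and 238 lower (57.7% higher), against 435 and 177 (71.1%), and for WT H3K27ac to 313 and 263 (54.3%), against 415 and 196 (67.9%). For the change over the controls TMM scaling gave 332 and 265 (55.6%), against 276 and 319 (46.4%). The change over the controls turned sign in the median over ends with TMM scaling (-0.00), with the next 100 kb as reference (-0.04), with summed reads (-0.01) and without X left (-0.02), against 0.05. At X left the H3K27ac change in scaled reads lay between 0.10 and 0.44 over 10 settings and the change over the controls between -0.30 and 0.50, H3K9me2 was below the rest with no control (-0.50) and below the next 100 kb (-0.07), and H3K9me3 was below with no control (-0.71), with the next 100 kb as reference (-0.38) and with ends of 50 kb (-0.07). Leaving out X left was an alternative chosen after seeing the data. No paired analysis was possible because every group here is a single library. Depth limits the met-2 control most, with a median of 18 reads per end window.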
